A study of Homo sapiens with 12 samples.

Results

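The 36 genes described here encode enzymes and membrane proteins of the lysosome, and they were measured in 2 human uveal melanoma cell lines, MP38 and 92.1. They were taken by gene name, not by measured value, from a fixed list drawn up with earlier results of these data known. All 36 were found among the 38997 features shared by the 2 count tables. All 36 also passed the filter on low counts in the fit of each line and in the joint fit. A stricter filter, a mean of at least 5 CPM, left 34. They comprise 10 glycosidases, 6 cathepsins, 5 sulfatases, 6 membrane proteins, 7 lipid hydrolases and lipid-handling proteins, and 2 other hydrolases. Poly(A) RNA was sequenced after 72 h of exposure to VE-822 (berzosertib) or to its solvent DMSO. VE-822 inhibits ATR, a kinase that is activated when DNA replication stalls. There were 3 libraries for each of 4 groups: MP38 in DMSO, MP38 in VE-822, 92.1 in DMSO and 92.1 in VE-822. No allele or other agent is named for any group. The dose of VE-822 was set for each line so that about 40% of the cells stayed viable, so dose and line cannot be told apart. Nothing in the labels says that libraries of 1 group came from separate cultures, so the p-values refer to the spread between these libraries, and that spread could be technical.

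Lysosomes are acidic organelles in which proteins, glycans, glycosaminoglycans and lipids are broken down. Most soluble lysosomal enzymes are tagged in the Golgi with mannose 6-phosphate and are carried to the lysosome by mannose 6-phosphate receptors, and the vacuolar ATPase (V-ATPase) acidifies the lumen. The transcription factors MITF, TFEB and TFE3 (the MiT/TFE family) bind a promoter element known as CLEAR, which holds the letters CACGTG, and MITF is also the lineage factor of melanocytes, the cells from which uveal melanoma arises. Inherited loss of many of these 36 genes causes lysosomal storage diseases.

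A promoter window from RefSeq (GRCh38.p14, 250 bases before to 50 after the start site) was found for 26 of the 36 genes. CACGTG, which reads the same on both strands, lay in the window of 9 of the 26 genes (34.6%), against 12.3% of 11738 genes tested in both lines and 8.77% of all 27305 genes with a window. The longer letters TCACGTG, which contain the shorter motif and were searched on both strands, lay in the same number of members (34.6%, against 7.03% of genes tested in both lines), and TCACGTGA lay in 6 of them (23.1% against 2.12%). The 9 genes were ARSB, CLN3, CTSA, CTSD, GAA, GALNS, LAMP1, MCOLN1 and NEU1. The stretches of 4 of them are printed because they lie before the whole span of the gene in the deposited tables and differ in how the gene behaved in VE-822. Each is in the direction of the gene, 5′ to 3′, with CACGTG in capitals. LAMP1 (chr13:113297010-113297089, plus strand) was higher in VE-822 in both lines and its whole window held 6 copies of the motif. GAA (chr17:80101468-80101547, plus strand) and GALNS (chr16:88857079-88857158, minus strand) were lower in MP38 and higher in 92.1. MCOLN1 (chr19:7522544-7522623, plus strand) was called in neither line.
LAMP1: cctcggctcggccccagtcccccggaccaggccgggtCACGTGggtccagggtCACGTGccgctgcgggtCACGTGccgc
GAA: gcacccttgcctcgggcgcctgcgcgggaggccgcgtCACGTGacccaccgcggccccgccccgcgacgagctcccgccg
GALNS: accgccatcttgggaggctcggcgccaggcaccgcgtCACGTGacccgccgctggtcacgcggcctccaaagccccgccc
MCOLN1: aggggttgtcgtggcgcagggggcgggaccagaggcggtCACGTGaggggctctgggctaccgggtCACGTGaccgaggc

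Library totals were 54415628 to 63638976 counts in MP38 and 112374503 to 137664800 in 92.1. In 92.1 the third DMSO library stood apart. Its counts differed from those of the other 2 DMSO libraries by a chi-square per gene of 87.9 and 89.7, against 2.37 to 8.48 for all other pairs of replicates. Over the 36 genes its level differed from the mean of the other 2 by a median of 0.137 in absolute log2, and by 0.424 for AGA, the farthest gene. Levels were scaled within each line, so a level of MP38 set beside one of 92.1 carries no test. Results for 92.1 are therefore given with and without that library where it mattered. The mRNA of ATR was 54.5 ± 0.346 CPM (a count over its TMM-corrected library size; mean ± SD, n = 3) in DMSO and 44.6 ± 2.36 in VE-822 in MP38, and 47.3 ± 2.91 and 45.3 ± 0.363 in 92.1. CDKN1A, a cell cycle inhibitor induced by p53, rose from 10.4 ± 0.743 to 44.1 ± 7.39 CPM in MP38 and from 18.4 ± 2.23 to 511 ± 52.4 CPM in 92.1. All 8 melanocyte lineage markers were above 1 CPM in MP38 and 7 of 8 in 92.1, and their summed level ranged from 4570 to 4755 CPM in DMSO and from 5585 to 5589 CPM in VE-822 in MP38, and from 18824 to 19035 and from 19644 to 19918 CPM in 92.1. The summed level of each list of fibroblast, epithelial, leukocyte and endothelial markers was at most 6.03 CPM in every library. Of the 4 markers of retinal pigment epithelium, 2 in MP38 and 3 in 92.1 were above 1 CPM, with sums of 283 to 351 CPM in MP38 and 36.3 to 63.6 CPM in 92.1, and their part in the results was not tested. In bulk RNA of this kind, fewer cells that express a gene and less RNA per cell cannot be told apart.

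Levels of different genes were compared per length, as the deposited FPKM. PSAP, the precursor of the saposins that help lipid hydrolases, had the highest level of the 36 genes in DMSO in both lines, 535 ± 5.37 FPKM in MP38 and 244 ± 16.3 FPKM in 92.1. Below it the order differed between the lines. In MP38 the next genes were CTSD (cathepsin D, 65.1 ± 1.08 FPKM), TPP1 (tripeptidyl peptidase 1, 58.2 ± 0.321) and PPT1 (palmitoyl-protein thioesterase 1, 49.6 ± 1.41), whose ranges over libraries did not overlap. In 92.1 they were NPC2, the soluble cholesterol carrier (43.8 ± 1.07 FPKM), NEU1, a sialidase (39.3 ± 2.80), LAMP1, a major glycoprotein of the lysosomal membrane (37.4 ± 1.73), and PPT1 (37.0 ± 0.726), and the ranges of NEU1, LAMP1 and PPT1 overlapped. The lowest 3 genes were the same in both lines: IDS, CTSK and CLN3, the last at 0.104 ± 0.0228 FPKM in MP38 and 0.127 ± 0.00964 FPKM in 92.1. Such levels depend on the feature lengths in the tables, which for some genes far exceed the exons of the GENCODE v29 annotation (19384 bases against 2038 for CTSZ). CLN3 shares 30.9% of its annotated exonic bases with other genes, and the effect of that on its count was not tested. All shares of exonic bases given here are of GENCODE v29 exons, which can differ from the features counted (5088 bases against 3372 for PPT1).

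**Figure D1:**
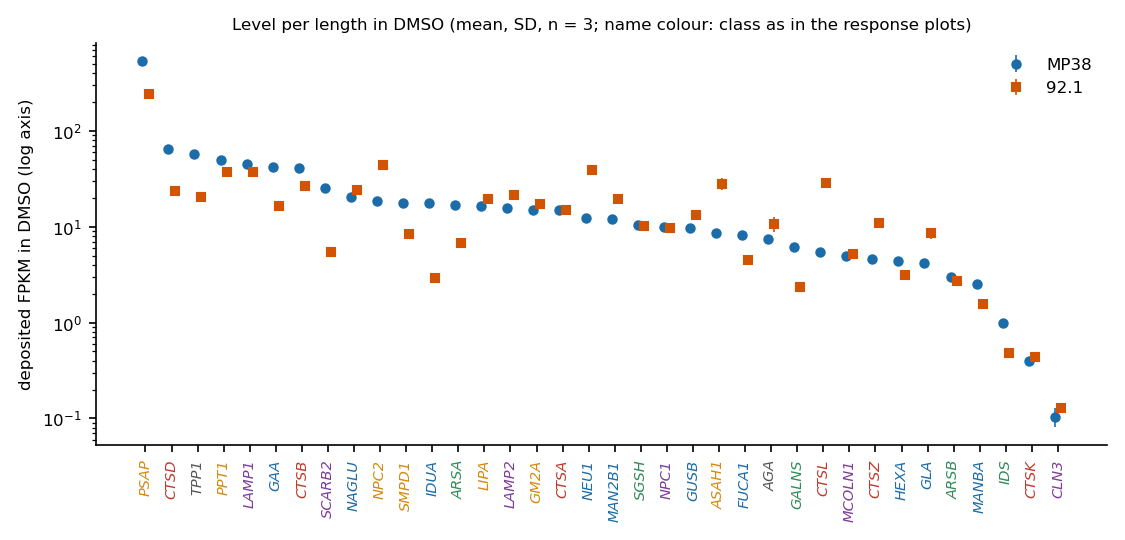
Deposited FPKM (log axis) of the 36 genes in DMSO, ordered by the level in MP38, with MP38 as circles and 92.1 as squares and bars for the SD of 3 libraries. PSAP is highest in both lines and IDS, CTSK and CLN3 are lowest, while IDUA and SCARB2 are higher in MP38 and CTSL, NEU1 and ASAH1 are higher in 92.1.

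In MP38, 21 of the 36 genes were higher in VE-822 and 11 were lower, by edgeR's quasi-likelihood test at an adjusted p under 0.05 over all genes tested. The remaining 4, ARSB, CLN3, MCOLN1 and PSAP, were not called. Among all 21415 genes tested in MP38, 26.9% were called higher and 25.4% lower, 52.3% in either direction. The median log2 fold change of the 36 genes was 0.24, against -0.01 over all genes. In 92.1, 17 genes were higher and 4 were lower, and 15 were not called, against 20.3% called higher and 19.6% lower (39.9% in either direction) of 22943 genes. Their median was 0.13, against 0.03 over all genes. Without the third DMSO library of 92.1, 21 were higher and 10 lower, and 11 were higher and 5 lower without the first. The calls over all genes without the third were 6377 higher and 6899 lower of 23816, against 4658 and 4498 with all libraries. Without the first they were 3535 higher and 4126 lower of 23905. The 3 VE-822 libraries were all above the 3 DMSO libraries for 23 genes in MP38 (29.7% of all genes tested) and all below for 11 (29%), so that 34 of 36 did not overlap (58.7%). In 92.1 they were all above for 21 genes (27.8%) and all below for 7 (25.1%), 28 in all (52.9%). At a mean of at least 5 CPM, 20 of 34 were higher and 11 lower in MP38, against 4080 and 4089 of 11488 genes. In 92.1 they were 21 and 4 of 34, against 2917 and 2805 of 11111 genes. Changes were small: 1 gene, IDUA in MP38, moved by more than 2-fold.

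**Figure D2:**
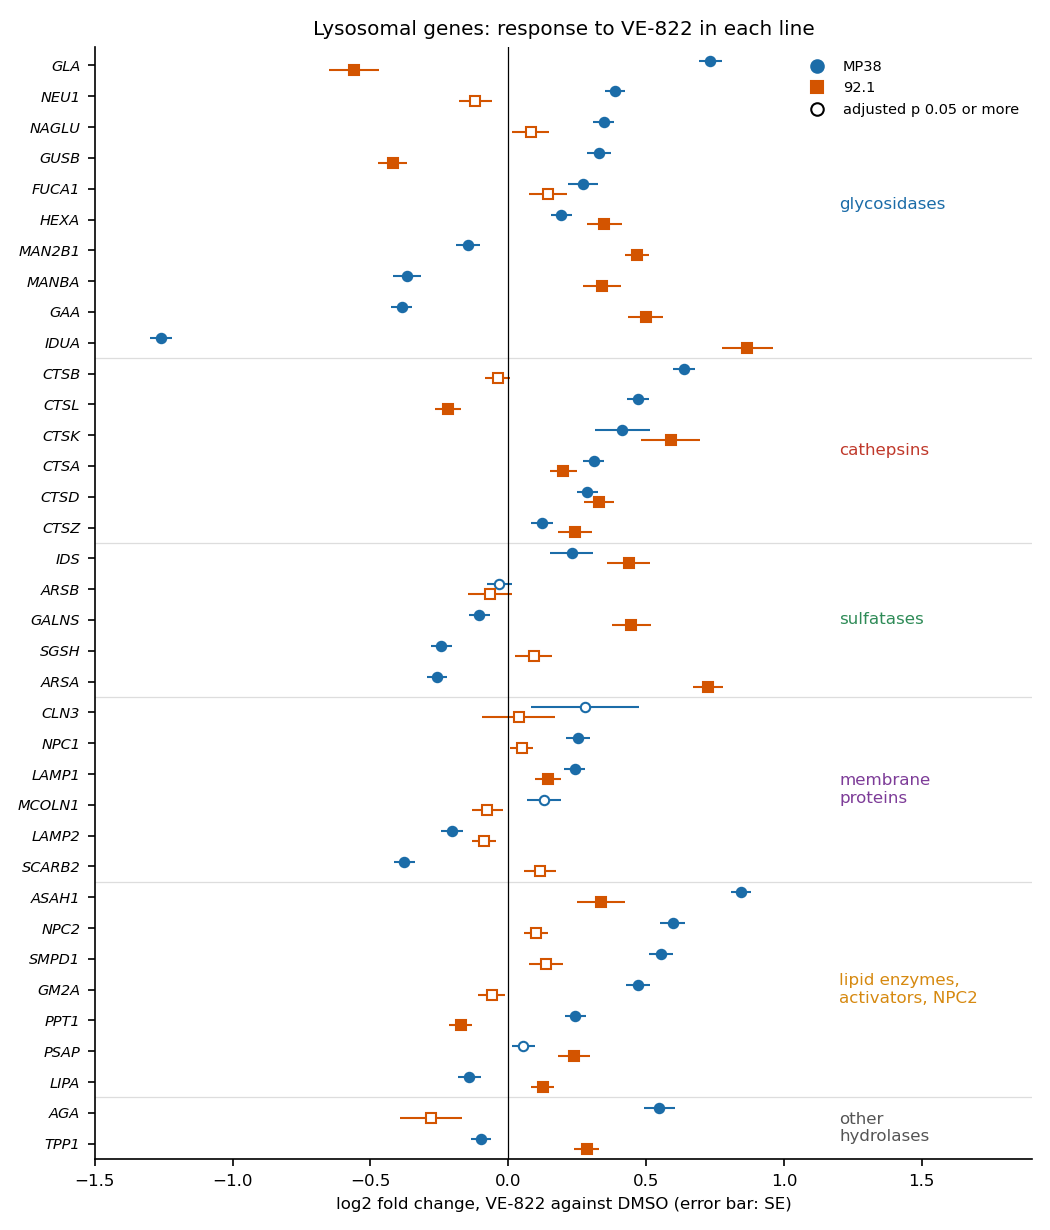
Log2 fold change of each gene in VE-822 against DMSO, with its SE, in MP38 (circles) and 92.1 (squares), grouped by class and ordered within a class by MP38; open symbols are genes that were not called. All 6 cathepsins lie to the right of 0 in MP38, and IDUA, GLA, ARSA and GAA have their circle and square on opposite sides of 0.

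Glycosidases, which remove sugars from glycans and glycolipids, split in MP38 into 6 that were higher and 4 that were lower, with a median log2 fold change of 0.23. In 92.1, 5 were higher, 2 were lower and 3 were not called, with a median of 0.24. Of the 10, HEXA alone was called higher in both lines, and none was called lower in both. GLA and GUSB were called higher in MP38 and lower in 92.1, and IDUA, GAA, MANBA and MAN2B1 were called lower in MP38 and higher in 92.1. NEU1, NAGLU and FUCA1 were higher in MP38 and not called in 92.1.

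IDUA encodes alpha-L-iduronidase, which removes iduronic acid from heparan and dermatan sulfate (ENSG00000127415.13, chr4:986997-1004564). In MP38 its level was 70.8, 70.6 and 69.6 CPM in the 3 DMSO libraries and 28.8, 29.1 and 30.2 CPM in the 3 VE-822 libraries. The corresponding values in 92.1 were 11.02, 11.6 and 14.1 CPM in DMSO and 22.4, 22.5 and 22.2 CPM in VE-822. The groups did not overlap in either line, and they moved toward each other: the level was lower by a log2 fold change of -1.26 ± 0.040 (SE, adjusted p = 1.23e-15) in MP38 and higher by 0.87 ± 0.092 (adjusted p = 0.000145) in 92.1. The response in 92.1 minus that in MP38 was 2.16 ± 0.098 (adjusted p = 8.96e-11, interaction contrast of the joint fit), the largest of the 36 genes. Without the third DMSO library of 92.1 the rise there was 0.95. IDUA shares 13.3% of its exonic bases with SLC26A1, a sulfate transporter gene on the opposite strand, and the strand setting of the counting is not stated. The SLC26A1 feature moved in the same directions, from 12.7 ± 0.236 to 6.90 ± 0.357 CPM in MP38 and from 2.04 ± 0.337 to 2.91 ± 0.0567 CPM in 92.1 and its part in the counts of IDUA was not tested.

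GLA encodes alpha-galactosidase A, which removes galactose from globotriaosylceramide (ENSG00000102393.14, chrX:101393273-101408012). It was at 25.4, 25.5 and 25.7 CPM in DMSO and 42.8, 42.2 and 42.2 CPM in VE-822 in MP38. GLA in 92.1 was at 58.3, 59.0 and 46.1 CPM in DMSO and 36.3, 36.6 and 37.9 CPM in VE-822, with the third DMSO library nearest to the VE-822 libraries. It was the glycosidase with the largest rise in MP38, 0.73 ± 0.042 (adjusted p = 9.12e-12), and the one with the largest fall in 92.1, -0.56 ± 0.091 (adjusted p = 0.00151), or -0.70 without that library. The responses differed by -1.26 ± 0.105 (adjusted p = 1.14e-07).

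The other glycosidases moved less than IDUA and GLA in each line. GAA, the acid alpha-glucosidase that breaks down glycogen, fell from 216 ± 4.81 to 165 ± 7.40 CPM in MP38 (-0.39 ± 0.039) and rose from 88.9 ± 7.61 to 126 ± 1.16 CPM in 92.1 (0.50 ± 0.063). GUSB, the beta-glucuronidase of glycosaminoglycan breakdown, went the other way, from 37.5 ± 1.33 to 47.2 ± 1.64 CPM in MP38 and from 52.4 ± 1.84 to 39.2 ± 1.17 CPM in 92.1. GUSB has near-identical copies in the genome, so its counts are uncertain. MANBA and MAN2B1, the lysosomal beta- and alpha-mannosidases, fell by 0.37 ± 0.050 and 0.15 ± 0.044 on the log2 scale in MP38 and rose by 0.34 ± 0.068 and 0.47 ± 0.045 in 92.1. The call of MAN2B1 in MP38 was lost without VE-822 library 1 (adjusted p = 0.0635) and without VE-822 library 2 (adjusted p = 0.0572). NEU1, which removes sialic acid, rose in MP38 from 59.5 ± 0.464 to 77.8 ± 2.39 CPM, and in 92.1 it was 194 ± 13.3 CPM in DMSO and 179 ± 6.76 CPM in VE-822, with overlapping groups. Without the third DMSO library of 92.1, NEU1 was called lower there (-0.21, adjusted p = 4.57e-05) and NAGLU was called higher (0.13, adjusted p = 0.00214). HEXA, the alpha subunit of beta-hexosaminidase, was 1.14-fold higher in MP38 and 1.27-fold higher in 92.1.

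**Figure D3:**
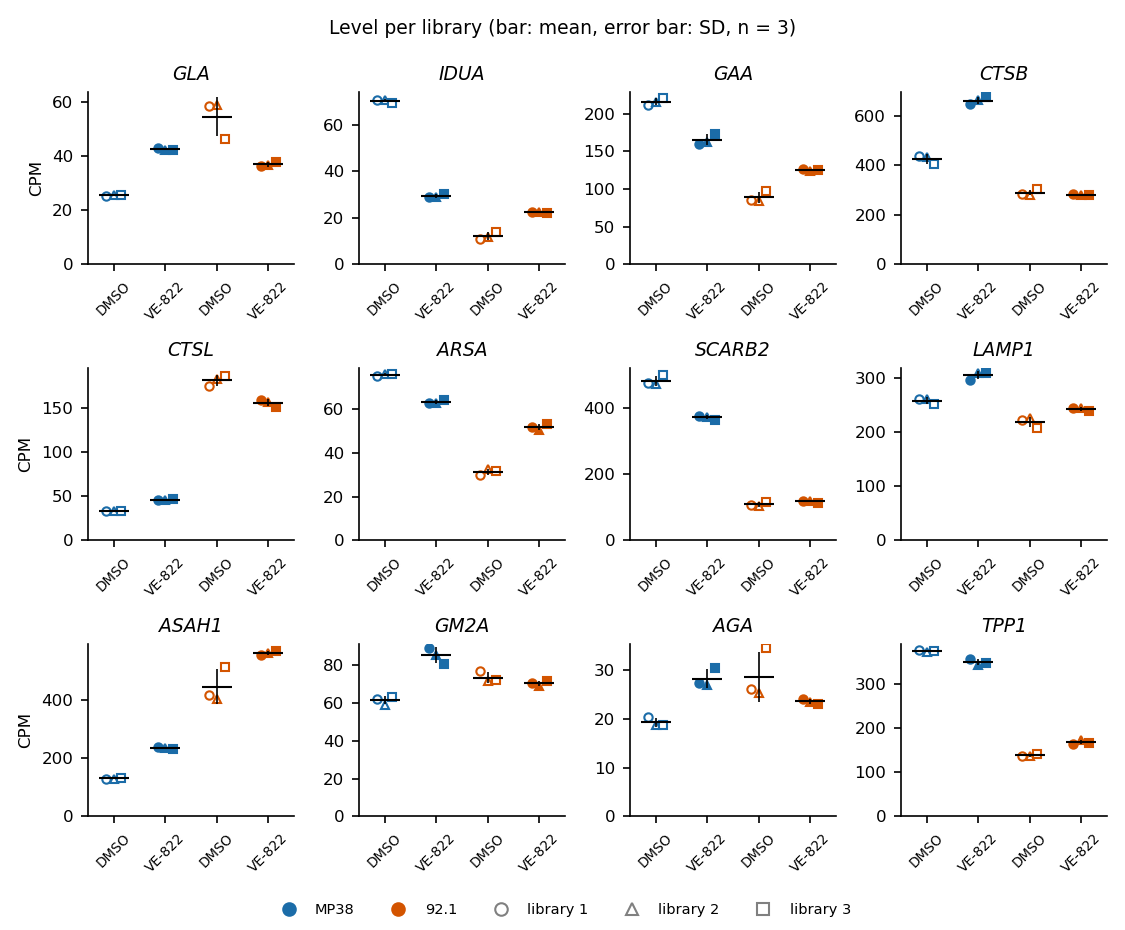
Level in each library, in TMM-scaled CPM, for 12 of the genes in MP38 (blue) and 92.1 (orange), with open symbols for DMSO, filled symbols for VE-822, the mean as a bar and the SD as an error bar. The 2 lines lie closer together in VE-822 than in DMSO for IDUA, GAA and ARSA, and the square that marks DMSO library 3 of 92.1 lies apart for GLA, ASAH1 and AGA.

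The cathepsins of this set are proteases of the lysosome, together with the protective protein CTSA. All rose in MP38: 6 of 6 were called higher, with log2 fold changes of 0.12 to 0.64 and a median of 0.36. In 92.1, 4 were higher (CTSA, CTSD, CTSK and CTSZ), CTSL was lower and CTSB was not called, with a median of 0.22. The responses of CTSB and CTSL differed between the lines and those of the other 4 were not called different. Cathepsins outside this set, from a further list described below, split in MP38. There CTSH (log2 fold change 0.18), CTSS (1.96) and CTSV (1.40) were called higher, and CTSC (-0.25), CTSF (-0.51) and CTSO (-0.46) were called lower. In 92.1 CTSO (0.78) and CTSS (0.94) were called higher, and CTSC (-0.52) and CTSV (-1.77) lower. CTSF (0.20) and CTSH (-0.12) were not called in 92.1.

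CTSB, the cysteine protease cathepsin B (ENSG00000164733.22, chr8:11842524-11869533), had the largest rise among the cathepsins of this set in MP38. Its level there was 439, 432 and 403 CPM in DMSO and 647, 663 and 674 CPM in VE-822, a log2 fold change of 0.64 ± 0.041 (adjusted p = 5.43e-11). CTSB in 92.1 was at 285, 282 and 303 CPM in DMSO and 285, 282 and 279 CPM in VE-822. The groups overlapped in 92.1, where the change was -0.04 ± 0.047 (adjusted p = 0.542), and the responses differed by -0.65 ± 0.062 (adjusted p = 5.98e-07).

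CTSL, the cysteine protease cathepsin L (ENSG00000135047.16, chr9:87724051-87731469), was at 33.6, 33.0 and 33.0 CPM in DMSO and 45.5, 45.5 and 47.1 CPM in VE-822 in MP38. Its level in 92.1 was higher, at 174, 182 and 186 CPM in DMSO and 159, 156 and 151 CPM in VE-822. The groups were apart in both lines and in opposite directions, with a rise of 0.47 ± 0.041 (adjusted p = 5.30e-09) in MP38 and a change of -0.22 ± 0.047 (adjusted p = 0.00608) in 92.1. This was the largest difference between the lines among the cathepsins of this set, -0.66 ± 0.061 (adjusted p = 3.71e-07). CTSV, a close relative of CTSL outside the 36 genes, rose from 3.80 ± 0.161 to 10.05 ± 0.960 CPM in MP38 and fell from 11.6 ± 0.941 to 3.40 ± 0.233 CPM in 92.1. How reads were split between these similar genes was not tested.

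CTSK, cathepsin K (ENSG00000143387.14, chr1:150794880-150809577), was near the bottom of the range. It was at 4.08, 3.80 and 3.34 CPM in DMSO and 5.38, 5.31 and 6.21 CPM in VE-822 in 92.1. This was the largest rise among the cathepsins of this set there (0.59 ± 0.106, adjusted p = 0.00257). In MP38 it was at 3.32, 3.20 and 3.41 CPM in DMSO and 4.28, 4.66 and 4.27 CPM in VE-822 (0.41 ± 0.099, adjusted p = 0.00149). The VE-822 libraries were above the DMSO libraries in both lines. CTSD, the aspartic protease, was the most abundant cathepsin per length in MP38 and rose in both lines, from 366 ± 6.60 to 447 ± 13.6 CPM in MP38 (0.29 ± 0.038) and from 136 ± 8.64 to 171 ± 3.07 CPM in 92.1 (0.33 ± 0.055). The difference between these responses was 0.07 ± 0.066 and was not called (adjusted p = 0.416). CTSD shares 41.7% of its exonic bases with a readthrough gene on the same strand, AC068580.4, which was at 0.423 to 6.12 CPM in the 4 group means. CTSA, a carboxypeptidase that protects NEU1 and beta-galactosidase, was 1.24-fold higher in MP38 and 1.15-fold higher in 92.1. It shares 17.7% of its exonic bases with NEURL2 and 3.4% with PLTP, both on the opposite strand. NEURL2 was at 1.03 to 3.06 CPM in the 4 group means, while PLTP went from 262 ± 5.37 to 204 ± 14.5 CPM in MP38 and was 0.0487 and 0.0645 CPM in 92.1. CTSZ was 1.09-fold and 1.18-fold higher. The call of CTSZ was lost in MP38 without DMSO library 1 (adjusted p = 0.106). In 92.1 the call of CTSA was lost without DMSO library 1 or VE-822 library 2 or 3 (adjusted p of 0.0503 to 0.0592), and that of CTSZ without DMSO library 1 or 2 or VE-822 library 3 (0.0569 to 0.0723).

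Sulfatases, which remove sulfate from glycosaminoglycans and sulfatide, were the one class with more members lower than higher in MP38. In MP38, 3 of 5 were lower (ARSA, SGSH and GALNS), IDS was higher and ARSB was not called, with a median log2 fold change of -0.10. In 92.1, 3 were higher (ARSA, GALNS and IDS), none was lower and SGSH and ARSB were not called, with a median of 0.44. The response in 92.1 exceeded that in MP38 for ARSA, GALNS and SGSH.

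ARSA, arylsulfatase A, degrades sulfatide (ENSG00000100299.18, chr22:50622754-50628173). It was at 74.8, 75.5 and 76.0 CPM in DMSO and 62.5, 62.5 and 64.1 CPM in VE-822 in MP38. The 92.1 libraries held 29.8, 32.7 and 31.4 CPM in DMSO and 51.7, 50.5 and 52.9 CPM in VE-822. The 2 lines again moved toward each other, by -0.26 ± 0.037 (adjusted p = 4.87e-06) in MP38 and 0.72 ± 0.055 (adjusted p = 2.06e-05) in 92.1, and the responses differed by 1.01 ± 0.064 (adjusted p = 4.52e-09).

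IDS, iduronate-2-sulfatase (ENSG00000010404.18, chrX:149476988-149521096), was the sulfatase called higher in MP38. It was at 8.38, 9.996 and 8.57 CPM in DMSO and 10.1, 10.2 and 11.3 CPM in VE-822 in MP38, and at 4.59, 4.36 and 4.73 CPM in DMSO and 6.03, 6.09 and 6.385 CPM in VE-822 in 92.1. The groups were just apart in MP38 (0.23 ± 0.078, adjusted p = 0.0173) and well apart in 92.1 (0.44 ± 0.077, adjusted p = 0.00226). The call in MP38 was lost without DMSO library 1, DMSO library 3 or VE-822 library 3 (adjusted p of 0.0683 to 0.0989). IDS has a pseudogene, so its counts are uncertain. It also shares 16.5% of its exonic bases with AC244197.3, a feature on the same strand. That feature went from 1.41 ± 0.358 to 0.613 ± 0.121 CPM in MP38 and from 0.364 ± 0.0414 to 0.950 ± 0.186 CPM in 92.1. Its part in the counts of IDS was not tested. GALNS, which acts on keratan and chondroitin sulfate, was 50.7 ± 0.316 CPM in DMSO and 47.1 ± 1.28 CPM in VE-822 in MP38 (-0.10 ± 0.039, adjusted p = 0.0318) and rose from 20.5 ± 1.73 to 27.9 ± 0.774 CPM in 92.1 (0.45 ± 0.071). Its call in MP38 was lost without DMSO library 1 or 2, or VE-822 library 1 or 2 (adjusted p of 0.0614 to 0.143), and with the replicate number as a block (adjusted p = 0.0625). SGSH, the sulfamidase of heparan sulfate, fell from 67.9 ± 1.62 to 57.4 ± 1.5 CPM in MP38, and in 92.1 it was 68.8 ± 6.55 CPM in DMSO and 73.3 ± 0.719 CPM in VE-822. Without the third DMSO library of 92.1, SGSH was called higher there (0.14, adjusted p = 0.000881) and ARSB was called lower (-0.19, adjusted p = 0.000694).

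Of the membrane proteins, 4 of 6 were called in MP38 and 1 of 6 in 92.1, beside 52.3% and 39.9% of all genes. In 92.1, 4 of 6 were called without the third DMSO library, beside 6377 genes higher and 6899 lower of all 23816 tested in that setting. In MP38 LAMP1 and NPC1 were higher, SCARB2 and LAMP2 were lower, and MCOLN1 and CLN3 were not called. In 92.1 LAMP1 was called higher and the other 5 were not called, and the median log2 fold change was 0.04, against 0.19 in MP38. SCARB2 was the one membrane protein whose response was called different between the lines, but NPC1 was close to the threshold (-0.17 ± 0.068, adjusted p = 0.0514) and was called lower in 92.1 in 11 of 18 other settings, among them RLE scaling (adjusted p = 0.0171), DESeq2 (0.00588) and 9 with 1 library left out. Without the third DMSO library of 92.1 the joint fit also called LAMP1 (-0.15, adjusted p = 0.0146) and MCOLN1 (-0.23, adjusted p = 0.0217) lower in 92.1.

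SCARB2 (LIMP-2), a sorting receptor and glycoprotein of the lysosomal membrane (ENSG00000138760.11, chr4:76158737-76234536), was at 476, 474 and 501 CPM in DMSO and 377, 374 and 366 CPM in VE-822 in MP38. SCARB2 in 92.1 was at 106, 104 and 118 CPM in DMSO and 120, 120 and 115 CPM in VE-822. The groups were apart in MP38 (-0.38 ± 0.038, adjusted p = 5.26e-08) and overlapped in 92.1 (0.12 ± 0.058, adjusted p = 0.149), where the gene was called higher without the third DMSO library (0.14, adjusted p = 0.000658). The responses differed by 0.52 ± 0.070 (adjusted p = 2.08e-05).

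LAMP1 (ENSG00000185896.11, chr13:113297239-113323672) was at 262, 263 and 253 CPM in DMSO and 298, 310 and 311 CPM in VE-822 in MP38, and at 224, 227 and 209 CPM in DMSO and 245, 245 and 240 CPM in VE-822 in 92.1. The VE-822 libraries were above the DMSO libraries in both lines. The rise was 0.24 ± 0.037 (adjusted p = 1.58e-05) in MP38 and 0.15 ± 0.048 (adjusted p = 0.04) in 92.1, where the call was lost when either of DMSO libraries 1 and 2 or any of the VE-822 libraries was left out (adjusted p of 0.0659 to 0.153), with RLE scaling (0.0949), with DESeq2 (0.1204) and with no filter on low counts (0.194). NPC1, the cholesterol exporter of the lysosomal membrane (ENSG00000141458.13, chr18:23506184-23586506), was at 101, 97.8 and 89.0 CPM in DMSO and 113, 113 and 117 CPM in VE-822 in MP38, a rise of 0.25 ± 0.043 (adjusted p = 5.21e-05) and the largest called rise of the class. In 92.1 it was 97.1 ± 2.03 and 100.5 ± 0.561 CPM. Its soluble partner NPC2 rose by 0.60 ± 0.046 in MP38, from 47.1 ± 2.60 to 71.3 ± 3.26 CPM, and was 116 ± 2.88 and 124 ± 2.02 CPM in 92.1. NPC2 was called higher in 92.1 without the third DMSO library (0.09, adjusted p = 0.0181). LAMP2, the other major membrane glycoprotein, fell from 145 ± 2.87 to 126 ± 5.87 CPM in MP38 (-0.20 ± 0.040) and was 207 ± 3.09 and 195 ± 3.5 CPM in 92.1 (-0.09 ± 0.042, adjusted p = 0.131), where it was called lower without the third DMSO library (adjusted p = 0.00337). LAMP1 and LAMP2 therefore had opposite calls within MP38. MCOLN1, the calcium channel TRPML1, was between 17.7 and 22.4 CPM in all 12 libraries. It was called higher in MP38 without VE-822 library 1 (0.17, adjusted p = 0.0395) and lower in 92.1 without DMSO library 3 (-0.11, adjusted p = 0.0485).

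Among the 7 lipid hydrolases, activators and NPC2, 5 were higher in MP38 (ASAH1, NPC2, SMPD1, GM2A and PPT1), LIPA was lower and PSAP was not called, with a median log2 fold change of 0.47, the highest of the 6 classes there. In 92.1 ASAH1, PSAP and LIPA were higher, PPT1 was lower and the other 3 were not called, with a median of 0.12. All 7 responses were called different between the lines, 5 of them lower in 92.1. The call of PSAP was lost in 10 of 18 other settings, with RLE scaling (adjusted p = 0.0637), with DESeq2 (0.0568) and without any 1 library other than DMSO libraries 1 to 3 of 92.1 and VE-822 library 3 of MP38 (0.0596 to 0.136).

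ASAH1, acid ceramidase (ENSG00000104763.20, chr8:18055992-18084998), had the largest rise of the 36 genes in MP38. It was at 129, 130 and 134 CPM in DMSO and 238, 235 and 232 CPM in VE-822 there, and at 417, 404 and 515 CPM in DMSO and 555, 563 and 569 CPM in VE-822 in 92.1. The groups were apart in both lines, but the third DMSO library of 92.1 lay nearer to VE-822 than the others did. The log2 fold change was 0.84 ± 0.036 (adjusted p = 1.03e-13) in MP38 and 0.34 ± 0.087 (adjusted p = 0.0145) in 92.1, or 0.42 without the third DMSO library. The call in 92.1 was lost without DMSO library 1 or 2 or VE-822 library 2 or 3 (adjusted p of 0.0501 to 0.0649).

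GM2A, the activator that presents ganglioside GM2 to beta-hexosaminidase (ENSG00000196743.9, chr5:151212150-151270440), was at 62.0, 59.0 and 63.3 CPM in DMSO and 89.3, 85.5 and 80.7 CPM in VE-822 in MP38. The levels in 92.1 were 77.0, 71.3 and 71.8 CPM in DMSO and 70.6, 69.0 and 71.6 CPM in VE-822, with overlapping groups. The rise in MP38 was 0.47 ± 0.043 (adjusted p = 1.10e-08), the value in 92.1 was -0.06 ± 0.049 (adjusted p = 0.368), and the difference of -0.50 ± 0.071 (adjusted p = 3.52e-05) was the largest in this class. Without the third DMSO library GM2A was called lower in 92.1 (-0.11, adjusted p = 0.0187). SMPD1, acid sphingomyelinase, rose from 47.9 ± 2.72 to 70.3 ± 2.47 CPM in MP38 (0.55 ± 0.045) and was 23.4 ± 1.36 and 25.8 ± 0.503 CPM in 92.1.

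PPT1, which removes fatty acids from proteins (ENSG00000131238.18, chr1:40072710-40097260), was at 163, 162 and 171 CPM in DMSO and 199, 193 and 194 CPM in VE-822 in MP38, and at 130, 128 and 125 CPM in DMSO and 114, 114 and 113 CPM in VE-822 in 92.1. It rose by 0.24 ± 0.037 (adjusted p = 1.25e-05) in MP38 and changed by -0.17 ± 0.042 (adjusted p = 0.0110) in 92.1, a call that was lost without VE-822 library 2 (adjusted p = 0.0577). PPT1 shares 23.4% of its GENCODE v29 exonic bases with CAP1, on the opposite strand, which rose from 196 ± 3.82 to 240 ± 2.32 CPM in MP38 and was 183 ± 12.7 and 186 ± 2.07 CPM in 92.1. LIPA, the acid lipase that frees cholesterol from its esters (ENSG00000107798.18, chr10:89213569-89414557), was at 77.7, 78.3 and 82.1 CPM in DMSO and 76.1, 71.1 and 68.8 CPM in VE-822 in MP38. In 92.1 it was at 99.3, 98.2 and 94.9 CPM in DMSO and 107, 105 and 106 CPM in VE-822. Both changes were small, -0.14 ± 0.042 (adjusted p = 0.00813) and 0.12 ± 0.043 (adjusted p = 0.0459), and the call in 92.1 was lost when any library but DMSO library 3 was left out (adjusted p of 0.119 to 0.16), with the replicate number as a block (0.0703), with RLE scaling (0.115), with DESeq2 (0.153) and with no filter on low counts (0.348). PSAP was 1686 ± 24.0 and 1751 ± 69.8 CPM in MP38 (adjusted p = 0.281) and rose from 797 ± 55.6 to 940 ± 16.8 CPM in 92.1 (0.24 ± 0.059, adjusted p = 0.0115), a call lost without DMSO library 1 or 2 or VE-822 library 1 or 2 (adjusted p of 0.0505 to 0.0514).

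The 2 other hydrolases moved in opposite directions in MP38. AGA, which cleaves the bond between glycan and asparagine (ENSG00000038002.9, chr4:177430774-177442437), was at 20.4, 18.7 and 18.7 CPM in DMSO and 27.2, 26.8 and 30.4 CPM in VE-822 in MP38, a rise of 0.55 ± 0.056 (adjusted p = 6.23e-08). In 92.1 it was at 26.1, 25.2 and 34.4 CPM in DMSO and 24.0, 23.5 and 23.0 CPM in VE-822. The groups were apart in 92.1, but the change of -0.28 ± 0.111 was not called (adjusted p = 0.0757). It was called without any single one of the 3 DMSO libraries, at -0.37 without the first or the second and -0.16 without the third (adjusted p of 0.00338 to 0.0480). TPP1, a peptidase that removes tripeptides (ENSG00000166340.18, chr11:6612768-6619448), was at 377, 372 and 373 CPM in DMSO and 355, 343 and 347 CPM in VE-822 in MP38 (-0.10 ± 0.036, adjusted p = 0.0249). In 92.1 it was at 137, 135 and 141 CPM in DMSO and 165, 174 and 166 CPM in VE-822 (0.29 ± 0.045, adjusted p = 0.00129). The call in MP38 was lost without DMSO library 1 or 2 or VE-822 library 2 (adjusted p of 0.0659 to 0.122).

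Set side by side, the lines called 8 genes higher in both (ASAH1, CTSA, CTSD, CTSK, CTSZ, HEXA, IDS and LAMP1) and none lower in both, against 5.70% and 6.29% of the 19146 genes tested in both lines. Genes called the same way in both numbered 4 without DMSO library 1 or VE-822 library 3 of 92.1, 5 without DMSO library 2 or VE-822 library 2 of 92.1, and 11 without DMSO library 3 of 92.1. The matching shares over all genes were not computed. All genes in 92.1 split into 3399 higher and 3343 lower of 23445 without VE-822 library 3. Without DMSO library 3 they split into 6377 and 6899 of 23816. Opposite calls were found for 12 of the 36 genes (33.3%), against 14.3% of the genes tested in both lines. Of these 12, CTSL, GLA, GUSB and PPT1 were higher in MP38 and lower in 92.1, and ARSA, GAA, GALNS, IDUA, LIPA, MAN2B1, MANBA and TPP1 were lower in MP38 and higher in 92.1. Without the third DMSO library of 92.1 the count was 17, against 20.2% of the genes tested. At a mean of at least 5 CPM it was 13 of 34, against 20.6% of 10190 genes. In the joint fit, which tests the difference itself, 23 of the 36 responses differed between the lines: 11 were higher in 92.1 and 12 were lower, against 22.1% and 18.8% (40.9% in either direction) of 24958 genes. Without the third DMSO library of 92.1, 13 were higher and 16 lower, against 5897 and 6015 of 24285 genes. At a mean of at least 5 CPM, 16 of 34 were higher and 11 lower, against 4156 and 3225 of 11681 genes. In the main fit of all 36 genes the median difference was -0.04, against 0.11 over all genes. Of the sulfatases 3 of 5 were called and all 3 were higher in 92.1, and of the cathepsins 2 of 6 were called and both were lower. Of the 7 lipid genes 5 were called lower, while the 10 glycosidases split into 4 and 4, with HEXA and FUCA1 not called. HEXA was close to the threshold (0.19 ± 0.072, adjusted p = 0.0503) and was called higher without the third DMSO library of 92.1 (0.20, adjusted p = 0.00351).

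**Figure D4:**
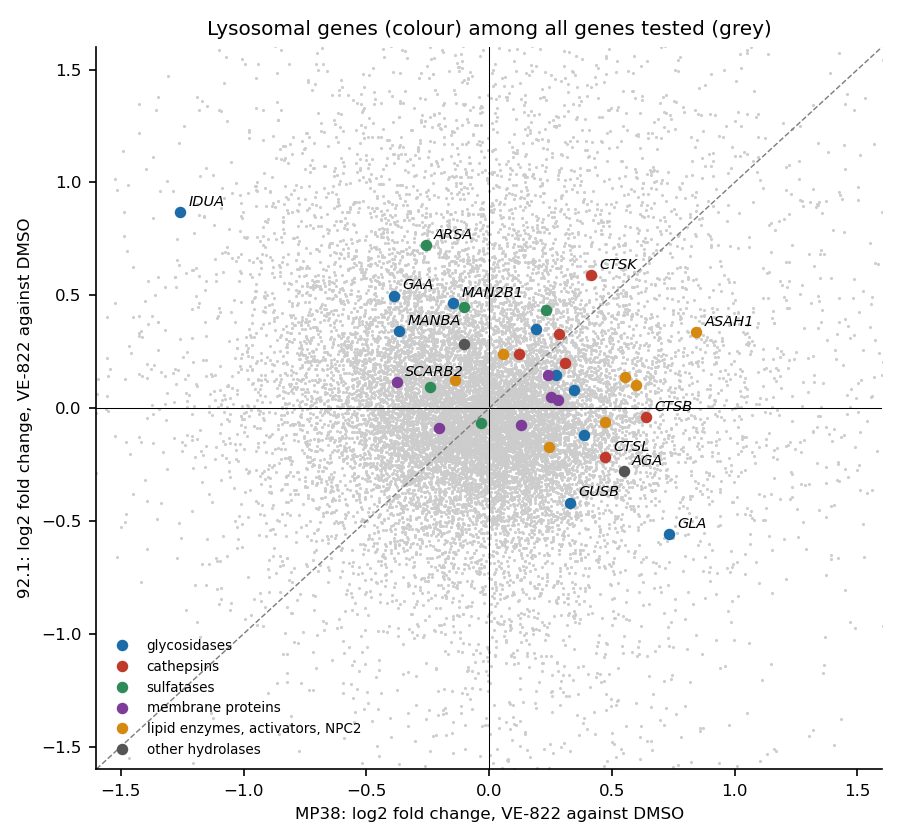
Log2 fold change in VE-822 against DMSO in MP38 (x axis) and 92.1 (y axis) for the 36 genes, coloured by class, over all genes tested in both lines (grey; points beyond 1.6 are outside the axes); the dashed line marks equal change. IDUA, ARSA and GAA lie at the upper left and GLA, GUSB and CTSL at the lower right.

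The summed level of the 36 genes was higher in VE-822 in both lines, from 5534 ± 35.4 to 6030 ± 109 CPM in MP38 (a ratio of 1.09) and from 4276 ± 162 to 4748 ± 12.8 CPM in 92.1 (1.11), and the VE-822 libraries were above the DMSO libraries in each. In MP38 the sum of the cathepsins rose from 1042 ± 18.0 to 1411 ± 33.9 CPM (a ratio of 1.35), while that of the sulfatases went from 229 ± 3.30 to 204 ± 2.54 CPM (0.889). The sums of glycosidases (0.953) and membrane proteins (0.937) were lower in MP38 although the median log2 fold change of each class was above 0 because the sums weight genes by their counts. The 2 other hydrolases likewise had a ratio of 0.959 in MP38 with a median above 0. In 92.1 all 6 class sums were higher in VE-822, from a ratio of 1.03 for membrane proteins to 1.22 for sulfatases. No test was made on these sums.

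**Figure D5:**
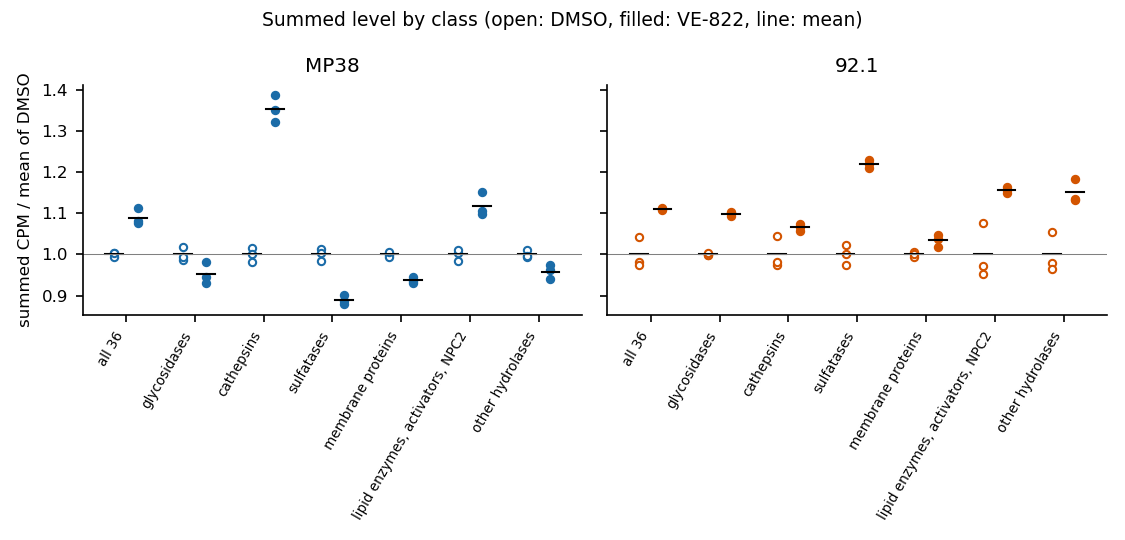
Summed CPM of all 36 genes and of each class in each library, divided by the mean of the DMSO libraries of that line, with open points for DMSO, filled points for VE-822 and lines for means. Cathepsins reach 1.35 times the DMSO mean in MP38 and sulfatases lie at 0.889 in MP38 and 1.22 in 92.1.

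The factors and machinery around these genes were described from 5 further lists, whose counts stand beside 52.3% of all genes called in MP38 and 39.9% in 92.1. Of the MiT/TFE factors and the proteins that control them by nutrients, 13 of 18 tested were higher and 3 lower in MP38, and 7 of 19 were higher and 5 lower in 92.1 (88.9% and 63.2% called). MITF fell in both lines, from 172 ± 11.6 to 144 ± 16.7 CPM in MP38 (-0.26 ± 0.062) and from 454 ± 10.3 to 339 ± 16.8 CPM in 92.1 (-0.42 ± 0.052). TFE3 and TFEB rose in both: TFE3 from 41.5 ± 1.71 to 56.8 ± 4.69 CPM and from 23.9 ± 0.727 to 27.0 ± 0.950 CPM, and TFEB, at a low level, from 3.99 ± 0.336 to 5.14 ± 0.0833 CPM and from 2.20 ± 0.206 to 3.62 ± 0.459 CPM. FNIP2, a partner of folliculin in the control of TFEB and TFE3, rose from 33.7 ± 0.485 to 69.8 ± 4.53 CPM in MP38 and fell from 147 ± 4.24 to 108 ± 1.32 CPM in 92.1. RRAGD, a Rag GTPase of the same pathway, was likewise higher in MP38 (0.60 ± 0.047) and lower in 92.1 (-0.20 ± 0.055). These are mRNA levels, and the activity and location of the factors were not measured.

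V-ATPase subunits were higher for 16 of 23 tested in MP38, with 4 lower, and for 8 of 22 in 92.1, with 1 lower (87.0% and 40.9% called). ATP6V1E1 rose from 83.6 ± 1.99 to 181 ± 1.54 CPM and ATP6V1B2 from 159 ± 2.45 to 322 ± 5.38 CPM in MP38, larger changes than those of any of the 36 genes that rose there. In 92.1 ATP6V1E1 rose by 0.22 ± 0.046 and ATP6V1B2 was not called (-0.04 ± 0.044), and both responses differed between the lines (-0.87 ± 0.061 and -1.02 ± 0.057). ATP6V0A2 was lower in both. Of the genes of enzyme sorting and sulfatase activation, 4 of 13 were higher and 4 lower in MP38, and 2 were higher and 6 lower in 92.1 (61.5% called in each). SORT1 (sortilin), a sorting receptor, rose from 142 ± 4.06 to 183 ± 7.40 CPM in MP38 and fell from 239 ± 4.78 to 173 ± 6.09 CPM in 92.1. M6PR, the cation-dependent mannose 6-phosphate receptor, was higher in MP38 (0.27 ± 0.039) and lower in 92.1 (-0.17 ± 0.057). SUMF2, a relative of the factor that activates sulfatases, was lower in MP38 (-0.11 ± 0.039) and higher in 92.1 (0.48 ± 0.055).

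Of the other lysosomal hydrolases, 17 of 31 tested were higher and 8 lower in MP38, and 10 of 33 were higher and 6 lower in 92.1 (80.6% and 48.5% called). GGH, gamma-glutamyl hydrolase, rose from 15.3 ± 0.836 to 26.5 ± 0.304 CPM in MP38 and fell from 181 ± 5.52 to 72.4 ± 3.06 CPM in 92.1. Of the other membrane proteins, 12 of 31 were higher and 7 lower in MP38, and 8 of 31 were higher and 6 lower in 92.1 (61.3% and 45.2% called). SLC17A5, the sialic acid exporter, was higher in both lines, from 16.3 ± 0.659 to 29.7 ± 1.29 CPM and from 18.0 ± 1.08 to 23.9 ± 0.430 CPM. DRAM1, a lysosomal membrane protein induced by p53, rose by 1.69 ± 0.062 in 92.1 and by 0.57 ± 0.077 in MP38.

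The 36 genes were last divided by the CACGTG letters of their promoters. In MP38 the 9 genes with the letters had a median log2 fold change of 0.24 (4 higher, 2 lower, 3 not called), and the 17 genes with a window without them had 0.25 (12 higher, 5 lower). In 92.1 the medians were 0.15 (5 higher, none lower, 4 not called) and 0.12 (6 higher, 4 lower, 7 not called). In 92.1, 3 of the 9 genes with the letters were called lower without the third DMSO library: ARSB (-0.19), MCOLN1 (-0.11) and NEU1 (-0.21). Of the 17 genes with a window without them, AGA, CTSL, GLA, GM2A, GUSB and PPT1 were called lower in that setting. Over all genes 6899 of 23816 were lower there. No test was made of these medians. IDUA and GLA, the genes with the largest differences between the lines, had windows without these letters. GAA, with 2 copies, fell in MP38 and rose in 92.1, and LAMP1, with 6, rose in both.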

How the data were processed

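For each line the authors deposited raw counts and FPKM per gene. The submitters' processing notes name STAR 2.7.11a, featureCounts 2.0.6 and the build GRCh38.p13, besides MultiQC 1.7, FastQC 0.12.1 and cutadapt 4.8, and the strand setting is not given in the sources used here. FPKM are counts divided by feature length and library total, and they were used as deposited.

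From the counts, R 4.3.3 with edgeR 4.0.16 was used: filterByExpr (minimum count 10, minimum total 15), TMM scaling and the quasi-likelihood F test within each line, and 1 joint fit of all 12 libraries for the difference between lines. Genes were called at a Benjamini-Hochberg adjusted p under 0.05, with the adjustment over every gene of a fit. The SE comes from the F statistic. The fits were tested on simulated data. There, 1.25-fold changes put into 50 genes were called in 64% of cases in MP38, 18% in 92.1 and 6% in the difference. For 2-fold changes the shares were 98%, 98% and 92%. In that simulation 20779 of 20979 genes were left unchanged in MP38, whereas 52.3% of genes were called in the data. The same held in 92.1 (22238 of 22438, against 39.9%) and in the difference (23715 of 23915, against 40.9%). With so few changed genes the adjustment is stricter, so the shares do not give the power for the genes described here. A gene that was not called may still have changed by a small amount. Levels are TMM-scaled CPM. Alternatives were DESeq2 1.42.0, limma 3.58.1 on log2(FPKM + 1), other scalings and filters, a replicate block, and each library left out.

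The genes, classes and lists were chosen with earlier results of these data known, so counts and medians of lists are descriptions. Values in every library are given for the member of each class with the largest called rise, fall and difference between lines. Up to 3 called genes with the smallest adjusted p in each line were eligible from each further list, with MITF, TFEB and TFE3 always. All cathepsins of these lists are also named, with their log2 fold changes. Some genes of the further lists are not reported here.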

Additional observations from a re-analysis of the deposited data

Results flagged for a closer look

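The response to VE-822 differed between the lines for 23 of the 36 genes by the interaction contrast of the joint fit (edgeR, adjusted p under 0.05), against 40.9% of all genes tested. Without the third DMSO library of 92.1, 13 were higher in 92.1 and 16 lower, against 5897 and 6015 of 24285 genes. At a mean of at least 5 CPM, 16 of 34 were higher in 92.1 and 11 lower, against 4156 and 3225 of 11681 genes. Values are log2, the response in 92.1 minus that in MP38, beside a median of 0.11 over all genes.

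Among glycosidases the difference was 2.16 for IDUA, 0.92 for GAA, 0.74 for MANBA and 0.64 for MAN2B1, and -1.26 for GLA, -0.72 for GUSB, -0.48 for NEU1 and -0.24 for NAGLU. Among cathepsins it was -0.66 for CTSL and -0.65 for CTSB. Among sulfatases it was 1.01 for ARSA, 0.58 for GALNS and 0.36 for SGSH, and for the membrane protein SCARB2 it was 0.52. Among lipid genes it was -0.50 for GM2A, -0.48 for ASAH1, -0.47 for NPC2, -0.39 for SMPD1 and -0.39 for PPT1, and 0.29 for LIPA and 0.21 for PSAP. For the other hydrolases it was -0.80 for AGA and 0.42 for TPP1. The dose of VE-822 was set separately in each line, so line and dose cannot be told apart in any of these differences.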

How the results depend on the processing

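Calls were recomputed with other scalings, filters and tools and with each library left out. Of the genes called, 27 of 32 in MP38, 14 of 21 in 92.1 and 21 of 23 in the difference were called in all settings that tested them, and no gene that was called changed direction. NAGLU and PSAP were the 2 lost in the difference. With 1 library left out, 11 to 21 of the 36 genes were higher and 3 to 10 lower in 92.1, and 3343 to 6899 of all genes were lower, the highest counts without DMSO library 3. Leaving out a library leaves 2 in its group. With a mean of at least 5 CPM required, 2917 of all genes were higher and 2805 lower in 92.1, where fewer genes (11111) were tested. With library size in place of TMM, all genes in 92.1 split into 5684 higher and 3534 lower (4658 and 4498 with TMM), and the 36 genes into 22 and 3. The summed level of the 36 genes then changed by 0.085 (log2) in MP38 and 0.22 in 92.1, against 0.12 and 0.15. Without the 3 highest genes the sum changed by 0.11 in 92.1. The cause of these changes was not tested. The count of genes with opposite calls, an alternative count added after seeing the data, was 9 to 17 over all settings. The share over all genes tested in both lines ranged from 7.37% with no filter on low counts to 20.6% at a mean of at least 5 CPM. Libraries with the same replicate number did not deviate together in MP38 (r of -0.021 to -0.003). In 92.1 r was 0.041 to 0.082 for the same number and -0.064 to 0.015 for different numbers, so each library was closest to its own number. The main fits did not take the numbers as pairs, and whether those of 92.1 mark pairs was not tested. With the replicate number as a block, 21 genes were higher and 10 lower in MP38, 16 and 4 in 92.1, and 11 and 12 in the difference. The block changed no other call of the 36 genes than those of GALNS in MP38 and LIPA in 92.1. Precision in CLN3, CTSK and IDS is limited by their low counts.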

Other observations

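The levels of the 36 genes in the 2 lines, as deposited FPKM, lay closer together in VE-822 than in DMSO for 24 genes (66.7%), against 55.8% of 19140 genes. The median absolute log2 gap between the lines fell from 0.70 to 0.51 for the 36 genes and from 0.84 to 0.75 over all genes. IDUA had a gap of -2.57 in DMSO (17.6 FPKM in MP38 and 2.95 FPKM in 92.1) and of -0.34 in VE-822 (7.13 and 5.64 FPKM). The gap of ARSA went from -1.32 to -0.23, that of GAA from -1.34 to -0.34 and that of GLA from 1.04 to -0.15. For CTSB it widened from -0.61 to -1.17, for MAN2B1 from 0.69 to 1.41 and for SMPD1 from -1.09 to -1.39. The lines' tables were normalized separately, the same DMSO libraries enter the gap and the response, and these genes were chosen after their values were seen, so the values are given as a description with no test.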
